A study of Mus musculus with 6 samples.

Results

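Chemoattractant receptors let myeloid cells sense and follow signals released in tissue. The 10 members described here are the genes Cxcr2, Cxcr4, Ccr1, Ccr2, Cx3cr1, Fpr1, Fpr2, C5ar1, Ltb4r1 and Ptafr. They were chosen by symbol and not by a rule on measured values, though earlier results of these data were known. All 10 were found among the 23746 gene loci measured in every library. Their products are G protein-coupled receptors of the cell surface. On binding a chemokine, a formyl peptide, a complement fragment or a lipid mediator, they act mainly through Gi proteins, whose beta and gamma subunits switch on phosphoinositide 3-kinase, phospholipase C and Rac. The actin cytoskeleton is then rebuilt toward the source of the signal, and receptor kinases and arrestins end the response. In bone marrow, CXCR4 and its ligand CXCL12 retain neutrophils and progenitors, CXCR2 promotes neutrophil release, and CCR2 promotes the exit of monocytes.

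Expression was measured in bone marrow of C57BL/6 mice of 12 weeks with wild-type Diap1 (WT), 1 disrupted copy (Diap1 +/-, Het) or none intact (Diap1 -/-, KO). Diap1 is the older symbol of Diaph1, which encodes the formin mDia1, a protein that nucleates and elongates actin filaments. Marrow of 4 mice per genotype was pooled. Cells carrying both Gr1 and Mac1, surface antigens of granulocytes and monocytes, were captured on magnetic beads, and what remained was depleted to uncommitted progenitors, called Lin- cells. Each genotype and fraction gave 1 library, so there were 6 libraries from 3 pools. The labels give neither the design of the disrupted allele nor the sex of the mice, and name no further allele or agent. Levels are FPKM, fragment numbers divided by transcript length and by the mapped total of the library, so they can be compared between genes. Each came with a deposited 95% interval that covers counting error only.

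The promoters of 4 members are shown because they stand for the 2 kinds of pattern found. Fpr1 and Fpr2 are neighbours that had the widest differences between the fractions, and Cxcr4 and Cxcr2 were the members with the highest levels in Lin- cells. Each sequence is the RefSeq window of GRCm38.p6 from 250 bases before to 50 bases after the annotated start, read 5′ to 3′ on the gene's own strand. The windows lie at chr17:17883890-17884189 (Fpr1, minus strand), chr17:17887574-17887873 (Fpr2, plus strand), chr1:128592250-128592549 (Cxcr4, minus strand) and chr1:74153744-74154043 (Cxcr2, plus strand). Capitals mark matches, on either strand, to 4 motifs of myeloid and core promoters. The motif of the C/EBP factors was searched as TTNCNNAA. The motif of PU.1, an Ets factor of myeloid and B cells, was searched as GAGGAAG. For the GC box, which Sp1 binds, the letters were GGGCGG. For the TATA box of core promoters they were TATAAA. Overlapping matches merge into 1 run of capitals.
Fpr1: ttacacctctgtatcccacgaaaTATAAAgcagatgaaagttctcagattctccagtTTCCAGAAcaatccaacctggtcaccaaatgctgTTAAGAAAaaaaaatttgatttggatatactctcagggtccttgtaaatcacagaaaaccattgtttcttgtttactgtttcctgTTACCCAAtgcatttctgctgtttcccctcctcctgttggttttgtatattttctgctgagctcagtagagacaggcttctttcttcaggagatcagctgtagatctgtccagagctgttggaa
Fpr2: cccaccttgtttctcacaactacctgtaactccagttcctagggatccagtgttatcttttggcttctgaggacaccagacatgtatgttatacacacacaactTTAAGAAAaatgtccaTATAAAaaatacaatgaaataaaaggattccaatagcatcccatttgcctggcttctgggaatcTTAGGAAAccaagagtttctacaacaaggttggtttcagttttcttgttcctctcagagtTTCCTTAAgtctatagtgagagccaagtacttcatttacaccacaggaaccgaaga
Cxcr4: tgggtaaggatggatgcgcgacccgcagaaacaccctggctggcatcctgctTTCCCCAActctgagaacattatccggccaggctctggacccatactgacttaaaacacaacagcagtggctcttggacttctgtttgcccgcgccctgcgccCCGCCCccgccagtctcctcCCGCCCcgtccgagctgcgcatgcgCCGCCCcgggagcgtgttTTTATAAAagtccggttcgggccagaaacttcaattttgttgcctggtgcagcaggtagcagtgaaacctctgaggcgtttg
Cxcr2: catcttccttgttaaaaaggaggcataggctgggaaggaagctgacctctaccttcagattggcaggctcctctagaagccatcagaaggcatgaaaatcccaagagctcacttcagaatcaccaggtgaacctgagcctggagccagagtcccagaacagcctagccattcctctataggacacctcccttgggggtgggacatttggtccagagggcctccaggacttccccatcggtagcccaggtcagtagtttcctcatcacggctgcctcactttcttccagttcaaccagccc

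The Fpr1 and Fpr2 windows each held 3 C/EBP matches and 1 TATA match, with 1 CpG apiece. The 2 genes are transcribed away from each other, and their loci are 3884 bases apart. In Fpr1 the C/EBP matches began at -193, -159 and -74 from the start, and in Fpr2 at -146, -66 and -6. Cxcr4 differed from this pair, with 20 CpGs, 3 GC boxes and overlapping TATA matches, on opposite strands, at -32 and -30. The Cxcr2 window held none of these letters and 2 CpGs. Over all 10 windows, C/EBP matches were found in 6 (Cxcr4, Ccr1, Ccr2, Fpr1, Fpr2 and C5ar1) and PU.1 matches in Ltb4r1 alone. Among 32851 RefSeq promoters of this length, 40.7% held the C/EBP letters, 13.6% the PU.1 letters, 13.6% the TATA letters and 35.7% the GC box. The median promoter had 7 CpGs. A match shows only that the letters are present.

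Diap1 followed the genotype labels. It had an FPKM of 36.0, 24.2 and 6.07 in WT, Het and KO Lin- cells and of 57.1, 34.1 and 4.07 in Gr1+Mac1+ cells. Whether the signal left in KO lies outside the disrupted part cannot be told. The 13 neutrophil markers matched (S100a8 and S100a9 the most abundant) summed to between 137546 and 165863 FPKM in the Gr1+Mac1+ libraries, and the 9 stem and progenitor markers, such as Myb and Kit, to between 264 and 320 FPKM in the Lin- libraries. The 10 erythroid markers, led by Car2, summed to between 2162 and 2317 FPKM in the Lin- libraries, above the progenitor markers, and none was at 0. B lineage markers summed to between 328 and 388 FPKM in Gr1+Mac1+ cells, with none of the 10 at 0. The Het Lin- library stood apart: its neutrophil markers summed to 8107 FPKM, against 56.6 in WT and 73.8 in KO, and no marker was at 0 in any of the 3. The counts of genes called between the fractions are given with and without the Het pool. Single limma ratios, medians and correlations include it unless stated. The pools may also differ in their mix of sexes, since Xist was at 54.2, 34.9 and 38.7 FPKM and the Y-linked Eif2s3y at 9.05, 17.6 and 17.96 in WT, Het and KO Lin- cells. What that adds to the receptor values was not tested. In these bulk samples, fewer cells of a type and less RNA per cell cannot be told apart.

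The receptors formed a different order in each fraction. In the Gr1+Mac1+ libraries all 10 were measured at an FPKM of at least 14.3, and their levels summed to 871 FPKM in WT, 831 in Het and 927 in KO. Fpr2 and Cxcr4 were the highest pair in every one of these libraries. Their deposited intervals overlapped in WT, Cxcr4 was above Fpr2 in Het, and Fpr2 was above Cxcr4 in KO. Ltb4r1 and Cxcr2 held the next places, with overlapping intervals in WT and with Ltb4r1 higher in Het and KO. Fpr1 held the fifth place in all 3 libraries, ahead of Ccr2, C5ar1 and Ccr1. Ccr2 and C5ar1 had overlapping intervals in Het and KO. Cx3cr1 and Ptafr were the lowest pair, with overlapping intervals in WT and KO.

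In the Lin- libraries of WT and KO, 2 chemokine receptors made up most of the summed receptor level, which was 42.5 FPKM in WT and 42.4 in KO. Cxcr4 alone held 49.7% of it in WT and 54.3% in KO, and Cxcr2 held 34.4% and 25.9%. Ccr2, Cx3cr1 and Ltb4r1 followed in that order, with overlapping intervals for the last 2 in WT. The other 5 members were at or below 0.224 FPKM in both libraries, with overlapping intervals between neighbours in the order. In the Het library the sum was 88.8 FPKM, Cxcr4 held 34.6% and Cxcr2 20.4%, and Fpr2 took the third place.

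**Figure D1:**
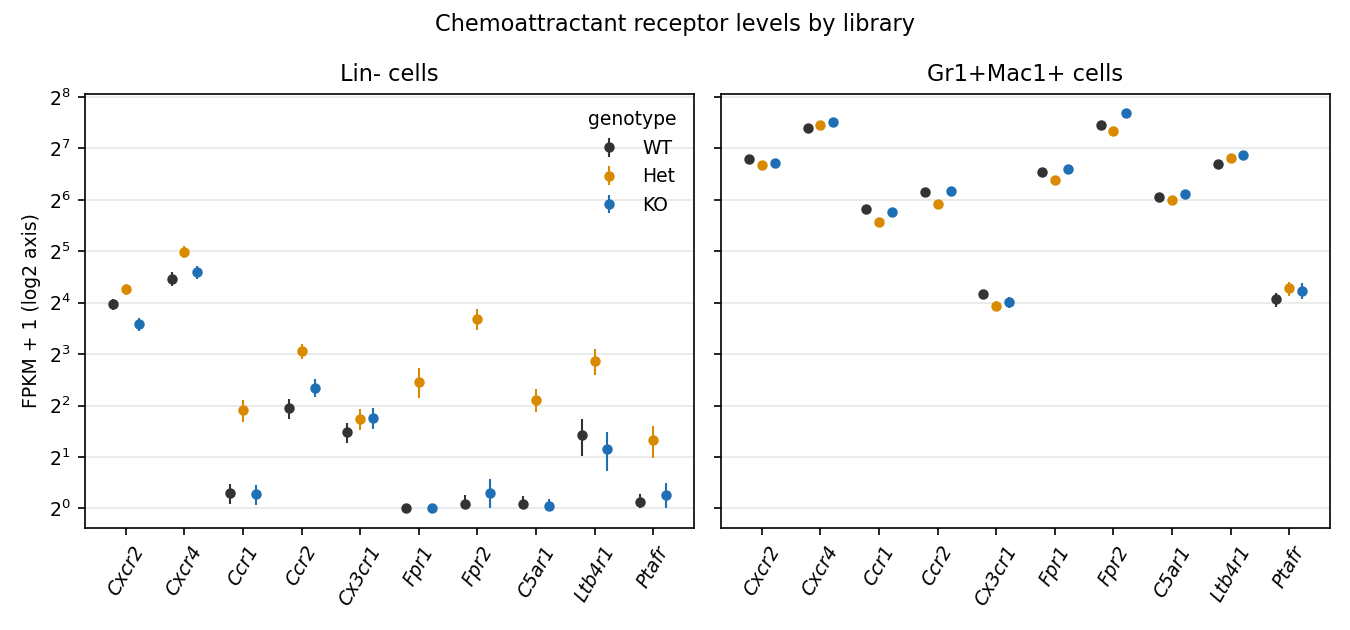
Level of the 10 receptors in the 6 libraries, as FPKM + 1 on a log2 axis, with Lin- cells on the left and Gr1+Mac1+ cells on the right. Points are single libraries (WT, Het or KO) and bars are the deposited 95% intervals, which cover counting error only. In Gr1+Mac1+ cells the 3 genotypes lie close together, whereas in Lin- cells the Het points of all receptors but Cx3cr1 lie above both others.

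The first comparison asks how receptor expression differs between the Lin- fraction and captured myeloid cells. All 10 members were higher in Gr1+Mac1+ cells, with limma log2 ratios from 2.38 for Cx3cr1 to 6.13 for Fpr2 and Benjamini-Hochberg adjusted p-values of at most 0.0022. Of all 11489 genes tested, 30.4% were higher in Gr1+Mac1+ cells and 51.6% were lower. Ccr1, Fpr1, C5ar1 and Ptafr reached the mean FPKM of 1 asked of tested genes only through the Gr1+Mac1+ libraries. For them the filter therefore favoured this direction. With no filter on low values all 10 members were higher too, beside 4156 of 17660 genes. The median ratio was 4.26 over the members and -0.33 over all genes. After rescaling the libraries by their median ratio, the median over all genes was 0.04 and 4704 genes were higher and 4233 lower. The rescaled ratios of the members ranged from 2.73 to 6.43. The p-values use moderated variances, in which limma joins the 2 residual degrees of freedom of each gene with information from all genes. They reflect how 3 pools of unlike genotype vary.

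Among the CXC chemokine receptors, Cxcr2 (chr1:74153994-74161246), which binds CXCL1, CXCL2 and related chemokines that draw neutrophils, had an FPKM of 14.7, 18.1 and 11.0 in WT, Het and KO Lin- cells. In Gr1+Mac1+ cells it stood at 110, 101 and 105. The fractions did not overlap, with means of 14.6 ± 3.58 and 106 ± 4.53 (SD, n = 3) and a log2 ratio of 2.80 (SE 0.15, limma adjusted p = 0.00015). Cxcr4 (chr1:128588199-128592299), the receptor of CXCL12, had an FPKM of 21.1, 30.8 and 23.0 in Lin- cells, against 167, 175 and 181 in Gr1+Mac1+ cells. Its log2 ratio was 2.77 (SE 0.12, limma adjusted p = 0.00011). The mean Lin- level, Het included, was 13.8% of the Gr1+Mac1+ level for Cxcr2 and 14.3% for Cxcr4. Both were well measured in the Lin- libraries, and which cells of this fraction carried them was not tested. The FPKM of Cxcr4 was 1.44, 1.70 and 2.10 times that of Cxcr2 in WT, Het and KO Lin- cells (counting SE 0.09, 0.09 and 0.14). In Gr1+Mac1+ cells the same ratio was 1.52, 1.72 and 1.72 (counting SE 0.03, 0.04 and 0.04).

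Ccr2 (chr9:124102183-124109140), the receptor of CCL2 on inflammatory monocytes, had an FPKM of 2.85, 7.35 and 4.10 in WT, Het and KO Lin- cells and of 70.6, 59.4 and 71.5 in Gr1+Mac1+ cells. Its log2 ratio between the fractions was 3.63 (SE 0.28, limma adjusted p = 0.00034). Ccr1 (chr9:123962126-123968692), a receptor of CCL3 and CCL5, had an FPKM of 0.224, 2.76 and 0.215 in Lin- cells and of 55.3, 46.2 and 53.1 in Gr1+Mac1+ cells. Its log2 ratio was 4.88 (SE 0.42, limma adjusted p = 0.00047). The WT and KO Lin- values rest on an implied 8 and 7 fragments, so in those libraries Ccr1 was barely detected. The Ccr1 and Ccr2 loci lie 133 kb apart, with Ccr1l1 and Ccr3 between them. Cx3cr1 (chr9:120048693-120068282), the fractalkine receptor of patrolling monocytes and macrophages, had 1.79, 2.34 and 2.39 in Lin- cells, against 17.0, 14.3 and 15.1 in Gr1+Mac1+ cells. It had the lowest ratio of the members, 2.38 (SE 0.13, limma adjusted p = 0.00014). Its mean Lin- level was 14.1% of the Gr1+Mac1+ level, close to the shares of Cxcr2 and Cxcr4 although its FPKM was far lower.

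The formyl peptide receptors sense peptides released by bacteria and mitochondria, and had the 2 widest differences of the members. Fpr2 (chr17:17887824-17893952), which also binds annexin A1 and cathelicidin, had an FPKM of 0.0673, 11.8 and 0.222 in WT, Het and KO Lin- cells. In Gr1+Mac1+ cells it stood at 174, 160 and 205, and its log2 ratio of 6.13 (SE 0.84, limma adjusted p = 0.0022) ranked 37 of the 11489 genes. Fpr1 (chr17:17876471-17883939) was listed at 0 in WT and KO Lin- cells and at 4.51 in Het, and stood at 92.8, 82.8 and 95.6 in Gr1+Mac1+ cells. Its log2 ratio was 5.69 (SE 0.60, limma adjusted p = 0.00088). The Lin- values of both genes outside the Het library rest on at most an implied 3 fragments, so their ratios depend on the pseudocount of 1 FPKM. Other genes of this family lie in the same cluster and may share fragments with Fpr2; Fpr-rs3 was listed at 0 in all 6 libraries.

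C5ar1 (chr7:16246743-16259540), the receptor of the complement fragment C5a, had an FPKM of 0.0645, 3.32 and 0.0354 in WT, Het and KO Lin- cells and of 65.3, 62.5 and 67.9 in Gr1+Mac1+ cells. Its log2 ratio was 5.30 (SE 0.48, limma adjusted p = 0.00057). Of the 2 lipid receptors, Ltb4r1 (chr14:55765962-55768492), which binds leukotriene B4, had an FPKM of 1.67, 6.30 and 1.22 in Lin- cells, against 103, 111 and 116 in Gr1+Mac1+ cells. It had a log2 ratio of 4.98 (SE 0.36, limma adjusted p = 0.00030). Ptafr (chr4:132564067-132580866), the receptor of platelet-activating factor, was low throughout, with 0.0909, 1.51 and 0.200 FPKM in Lin- cells, against 15.7, 18.4 and 17.8 in Gr1+Mac1+ cells. Its log2 ratio was 3.62 (SE 0.24, limma adjusted p = 0.00023). Coordinates are those of the deposited mm10 gene loci, exons and introns together.

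Every member was higher in the Gr1+Mac1+ than in the Lin- library of each of the 3 pools, but by different amounts. In the WT and KO pools Fpr2 had log2 ratios of 7.35 and 7.40, and in the Het pool 3.65. For Fpr1 the ratios were 6.55, 3.93 and 6.59 in WT, Het and KO, and for C5ar1 they were 5.96, 3.88 and 6.06. The Het pool had the smallest ratio for all 10 members. Without it, all 10 were still called, with ratios from 2.47 to 7.37.

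**Figure D2:**
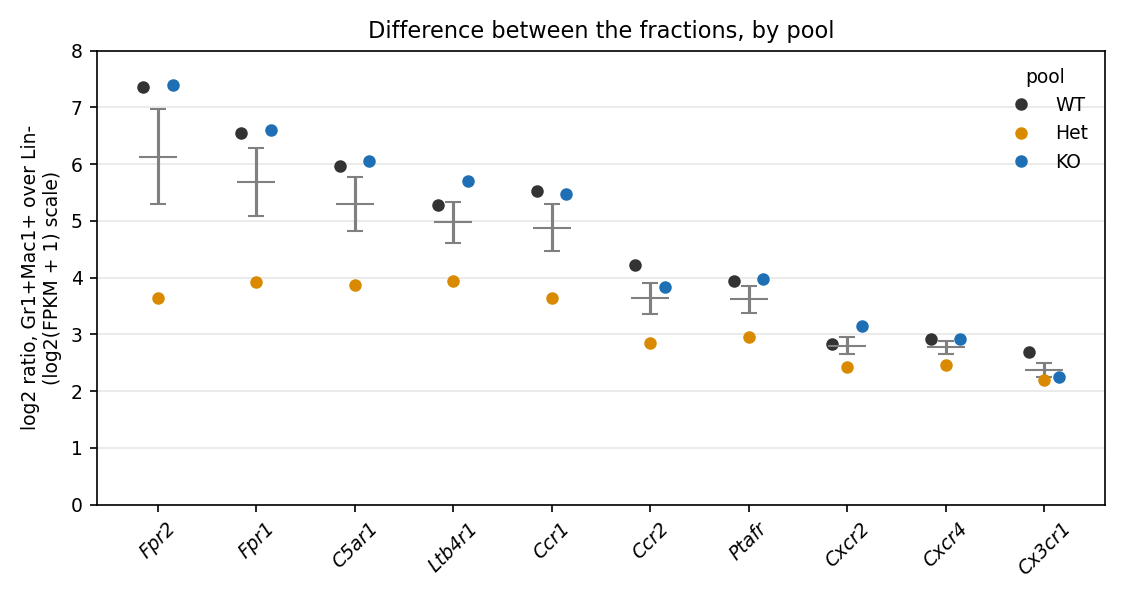
Log2 ratio of Gr1+Mac1+ over Lin- cells for each receptor on the log2(FPKM + 1) scale. Coloured points are the 3 pools, and grey bars are the limma estimate with its moderated SE. All points lie above 2; the Het point is the lowest for each receptor, and the spread between pools is widest for Fpr2 and narrowest for Cx3cr1 and Cxcr4.

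The remaining comparisons ask what loss of 1 or both Diap1 copies does to receptor expression within a fraction. With 1 library per group there is no replicate spread and no test. A gene passed the size rule used here where 3 conditions held. Its 2 values differed 2-fold or more as log2(FPKM + 1), the larger of them was an FPKM of 5 or above, and their deposited intervals did not overlap. Intervals that do not overlap at any size of change are given as a second, looser count. The 3 comparisons within a fraction share libraries and are therefore not independent of each other.

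In Gr1+Mac1+ cells no member passed the size rule in KO against WT, Het against WT or KO against Het, where 0.142%, 0.133% and 0.133% of genes passed in either direction. The log2 ratios of the members ranged from -0.16 to 0.24 in KO against WT, with a median of 0.05 (0.01 for all genes tested). In KO, 3 members lay above WT with intervals apart, among 5.25% of genes, and none lay below. Fpr2 had an FPKM of 174 in WT (interval 167 to 180) and of 205 in KO (196 to 213), a log2 ratio of 0.24 with a counting SE of 0.04. Ltb4r1 stood at 103 in WT (98.03 to 108) and 116 in KO (109.7 to 121), a ratio of 0.17 (counting SE 0.05). For Cxcr4 the levels were 167 in WT (162 to 172) and 181 in KO (174 to 187), a ratio of 0.11 (counting SE 0.03). The intervals of the other 7 members, Fpr1 and C5ar1 among them, overlapped between KO and WT.

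Het Gr1+Mac1+ cells had 6 members below WT with intervals apart, among 8.49% of all genes, and none above. They were Ccr1 at -0.25 (counting SE 0.05), Ccr2 at -0.25 (0.04), Cx3cr1 at -0.23 (0.07), Fpr1 at -0.16 (0.05), Cxcr2 at -0.12 (0.03) and Fpr2 at -0.12 (0.04), all as log2 ratios. The median over the 10 members was -0.12. Ltb4r1 and Ptafr had higher values in Het than in WT, by 0.11 (counting SE 0.05) and 0.22 (0.10), with overlapping intervals. In KO against Het, 4 members were higher with intervals apart, among 9.46% of genes. These were Fpr2 at 0.35 (counting SE 0.04), Ccr2 at 0.27 (0.04), Fpr1 at 0.21 (0.06) and Ccr1 at 0.20 (0.05). Fpr2 was the one member whose 3 intervals were all apart, in the order Het, WT, KO. The FPKM of Fpr2 was 1.87, 1.93 and 2.14 times that of its neighbour Fpr1 in WT, Het and KO (counting SE 0.06, 0.07 and 0.07).

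Marker sums of the Gr1+Mac1+ libraries also differed between genotypes, and not all in the order of the receptors. Neutrophil markers summed to 0.936 of the WT level in Het and to 1.13 times it in KO. Monocyte markers, led by Ly6c2, summed to 2095, 1962 and 2105 FPKM in WT, Het and KO, and erythroid markers to 714, 485 and 413 FPKM. None of these markers was at 0 in any Gr1+Mac1+ library. The receptors summed to 0.954 and 1.06 times the WT level. The part of the cell mix in the receptor differences was not tested.

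**Figure D3:**
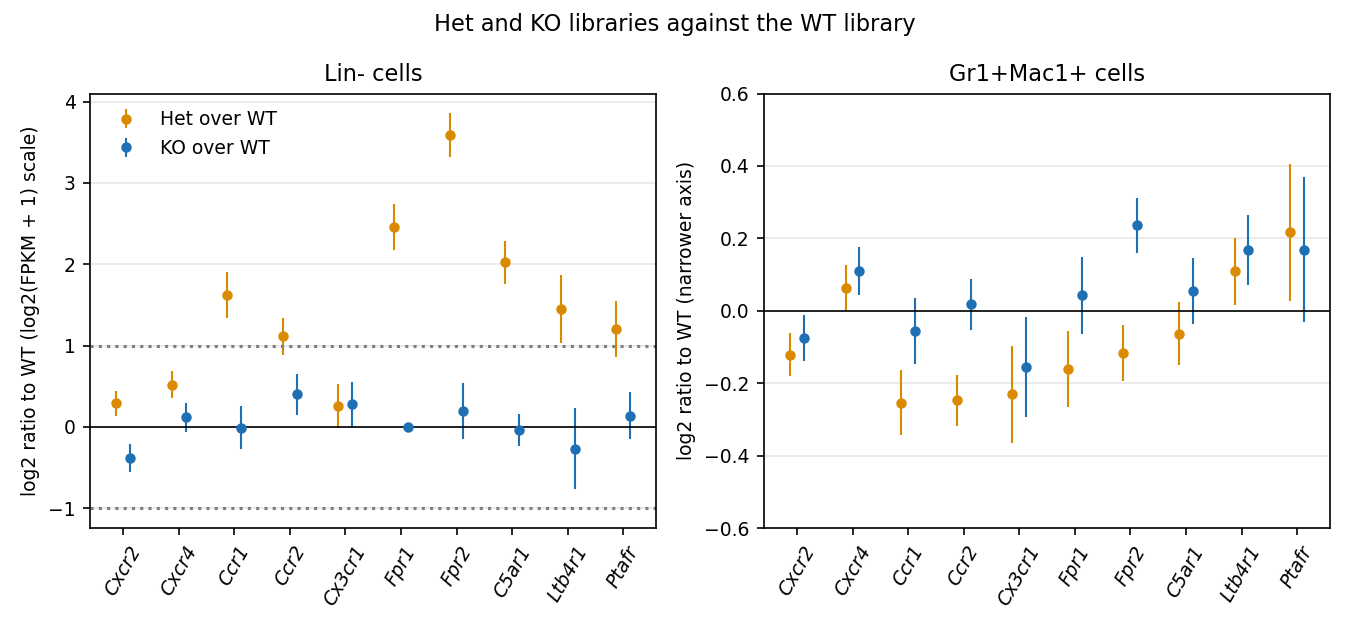
Log2 ratio of the Het and KO libraries to the WT library of the same fraction, on the log2(FPKM + 1) scale, with 95% bars from counting error only; the axes of the 2 panels differ, dotted lines in the left panel mark 2-fold, and Fpr1 in KO Lin- has no bar because both libraries list it at 0. The Het ratios of Lin- cells reach 3.59 (Fpr2), whereas all ratios of Gr1+Mac1+ cells lie between -0.25 and 0.24.

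In Lin- cells of KO against WT no member passed the size rule, where 0.173% of genes passed in either direction. Ccr2 was higher with intervals apart, at 4.10 (interval 3.47 to 4.72) against 2.85 (2.36 to 3.35) FPKM, a log2 ratio of 0.40 with a counting SE of 0.13; 6.16% of genes were higher in this way. Cxcr2 was lower with intervals apart, at 11.0 (9.85 to 12.1) against 14.7 (13.4 to 15.9) FPKM, a log2 ratio of -0.39 with a counting SE of 0.09; 7.38% of genes were lower in this way. Cxcr4 had a ratio of 0.12 (counting SE 0.09), with overlapping intervals. Monocyte markers were 1.53 times as high in KO as in WT Lin- cells by their sum (121 against 78.8 FPKM), and all 12 were higher. What they add to the Ccr2 value was not tested. Ccr1, Fpr1, Fpr2, C5ar1 and Ptafr were all at or below 0.224 FPKM in both libraries, where a difference was not detectable at this depth.

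Het Lin- cells had higher values than WT for all 10 members. By the size rule 3 passed, among 1.30% of genes that were higher in this way: Fpr2 with a log2 ratio of 3.59 (counting SE 0.14), Ltb4r1 with 1.45 (0.21) and Ccr2 with 1.12 (0.12). The ratio of Fpr2 depends on the pseudocount, since the WT value rests on an implied 1 fragment: it was 6.16 with a pseudocount of 0.1 and 1.73 with 5. Of the 9 members tested, 8 were higher with intervals apart, Cx3cr1 being the exception, among 8.41% of all genes tested; the intervals of Ptafr, which was not tested, were apart too. The median log2 ratio over the 10 members was 1.33. Ccr1, Fpr1, Fpr2 and C5ar1 reached the mean FPKM of 1 asked of tested genes only through the Het library, and Ptafr did not reach it, so these counts describe the library and carry no weight of their own. Fpr1, C5ar1, Ccr1 and Ptafr had ratios of 2.46, 2.02, 1.62 and 1.20 but an FPKM under 5 in Het; with a pseudocount of 5 they were 0.93, 0.72, 0.57 and 0.36. The 2 receptors already well measured in WT Lin- cells differed least apart from Cx3cr1, Cxcr4 by 0.52 (counting SE 0.08) and Cxcr2 by 0.29 (0.08). In KO against Het, Fpr2 and Ltb4r1 were lower by the size rule, with ratios of -3.39 and -1.72, among 1.16% of genes. In that comparison 8 of the 9 members tested were lower in KO with intervals apart, among 7.40% of genes tested, and so was Ptafr.

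The excess of each receptor in the Het Lin- library was set against its level in Het Gr1+Mac1+ cells. Het minus WT, in Lin- cells, came to between 3.44% (Cxcr2, counting SE 0.92) and 7.71% (Ptafr, counting SE 1.49) of the Het Gr1+Mac1+ FPKM, with a median of 5.47% over the 10 members. For the 13 neutrophil markers the same quantity ran from 5.21% to 6.78%, with a median of 5.59%. Over 12 monocyte markers the median was 5.89%, with a range from 3.20% to 9.30%. Every one of these receptors and markers was higher in Het. Eosinophil, basophil and mast cell markers, led by Prg2, summed to 378 FPKM in Het against 38.9 in WT Lin- cells, and stromal markers to 776 against 409. Stem and progenitor markers summed to 264 against 271. The same quantity for KO minus WT, as a percent of KO Gr1+Mac1+ cells, had a median of 0.04% over the receptors, 5 of which were positive, and ran from -3.51% (Cxcr2) to 3.95% (Cx3cr1). Its median was 0.01% over the neutrophil markers, 9 of 13 positive, and 2.63% over the monocyte markers, 12 of 12 positive.

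**Figure D4:**
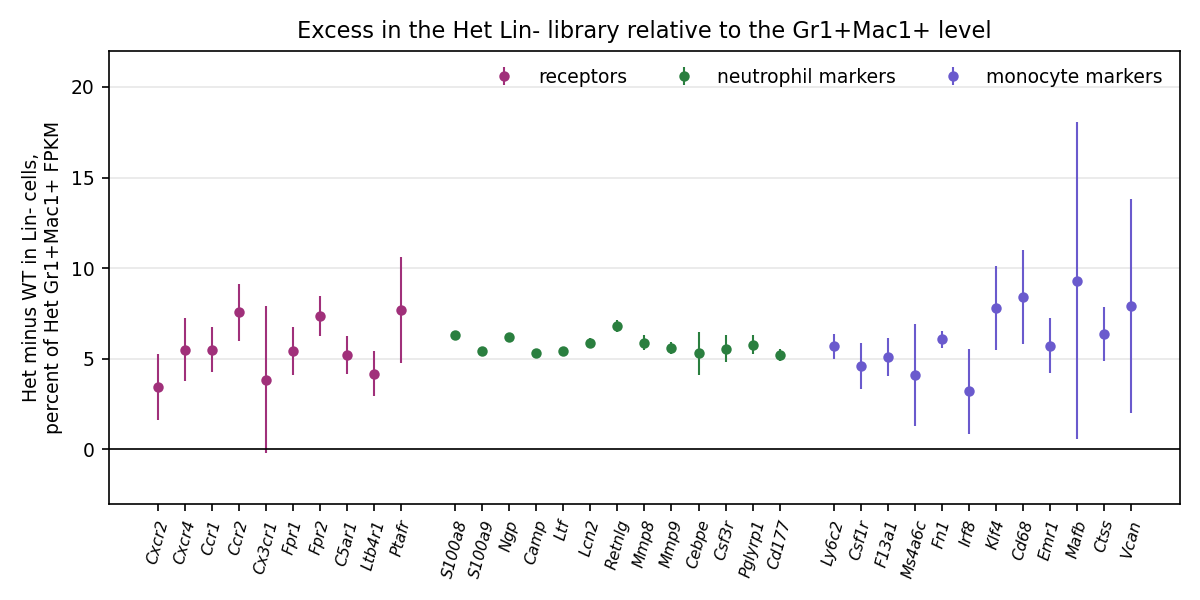
Het minus WT FPKM in Lin- cells, as a percent of the FPKM in Het Gr1+Mac1+ cells, for the 10 receptors, 13 neutrophil markers and 12 monocyte markers. Points are single genes from 1 library pair and bars are 95% counting intervals. The receptors lie between 3.44% and 7.71%, around the band from 5.21% to 6.78% of the neutrophil markers.

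Genes that act with the receptors were taken from lists, which were chosen with earlier results of these data known. The genes named from each list include those with the largest differences. Of 27 ligands and enzymes that make lipid ligands, 18 could be tested between the fractions by limma, and 14 were higher in Gr1+Mac1+ and 4 in Lin- cells (14 and 2 after rescaling), beside 30.4% and 51.6% of all genes. Their median log2 ratio was 2.61, against -0.33 for all genes. Camp, the cathelicidin, averaged 8288 FPKM in Gr1+Mac1+ cells and had 1.67, 420 and 2.65 in WT, Het and KO Lin- cells. Anxa1, which encodes annexin A1, averaged 1353 and had 6.29, 82.1 and 7.92 in the same Lin- libraries. The neutrophil chemokine Cxcl2 averaged 34.5 and had 0.334, 1.57 and 0.459. Without the Het pool the counts of this list and of the other 3 were the same. The 4 higher in Lin- cells, named after their values were seen, were Ppbp (log2 ratio -2.86), Mif (-1.74), Cxcl12 (-0.75) and Lpcat1 (-0.59). Ppbp is a platelet chemokine that also stands in the megakaryocyte list, and Cxcl12 is a stromal product that also stands in the stromal list. A further list held other receptors, not all of them of the members' families. Of 14 tested, 12 were higher in Gr1+Mac1+ cells, as were 30.4% of all genes, and 2, Cxcr6 and Darc, were not called. The median of the 14 was 1.49. Niacr1, the niacin receptor, led with a log2 ratio of 4.37, followed by Ccr3, the eotaxin receptor of eosinophils, at 2.81. S1pr4, a sphingosine 1-phosphate receptor, had the highest mean of them in both fractions, at 33.7 and 11.4 FPKM. In Gr1+Mac1+ cells Niacr1 was close to it, with a mean of 32.4 FPKM, and was above it in Het (38.2 against 36.1 FPKM).

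Signalling genes were measured in both fractions at high levels. Of 27 tested G proteins and effectors, 25 were higher in Gr1+Mac1+ cells, where 30.4% of all genes were higher and 51.6% lower. Gna15 was higher in Lin- cells (log2 ratio -0.66) and Gnb1 was not called. The median log2 ratio of the 27 was 1.68, against -0.33 for all genes. After rescaling, 26 were higher in Gr1+Mac1+ cells and none in Lin- cells. Gnai2, the main Gi alpha subunit of leukocytes, averaged 519 FPKM in Gr1+Mac1+ and 171 in Lin- cells (log2 ratio 1.60). Wide differences were those of Fgr, a Src family kinase (5.54, with 0.304, 5.89 and 0.180 FPKM in WT, Het and KO Lin- cells), of Pik3r6, a regulatory subunit of phosphoinositide 3-kinase gamma (3.58), and of Gpsm3, a modulator of Gi proteins (3.44). Of 13 tested kinases, arrestins and RGS proteins that end receptor signals, 11 were higher in Gr1+Mac1+ cells, and Rgs10 (-1.75) and Arrb1 (-0.52) were higher in Lin- cells (11 and 1 after rescaling), beside 30.4% and 51.6% of all genes. The median of the 13 was 1.49. Arrb2, which encodes beta-arrestin 2, averaged 215 and 22.7 FPKM, and Rgs14 differed most, with a log2 ratio of 3.39.

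Between genotypes, none of these lists had a member past the size rule in Gr1+Mac1+ cells or in KO against WT Lin- cells, although single genes passed under looser settings. In Het against WT Lin- cells, 6 of 17 tested ligands and enzymes were higher and none lower, where 1.30% of all genes were higher. The median of the 17 was 0.67, against -5.5e-05 for all genes. Camp led with a log2 ratio of 7.30, followed by Anxa1 at 3.51, Ccl6, a CCR1 ligand, at 3.34, Alox5ap at 1.73, Alox5 at 1.29 and Ccl4 at 1.01. Alox5 and Alox5ap encode 5-lipoxygenase and the protein that activates it, which begin the synthesis of leukotriene B4. Of the signalling genes, Fgr was higher at 2.40, and none of the other receptors or of the signal-ending genes passed. In KO against Het Lin- cells, which shares the Het library, 5 ligands (Camp, Anxa1, Ccl6, Alox5 and Ppbp) and Fgr were lower. Fgr stood at 0.304 and 0.180 FPKM in WT and KO and reached a mean FPKM of 1 only through the Het library. Its passing in these comparisons therefore carries no weight of its own. Camp also belongs to the neutrophil marker list.

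The genes most like each receptor were sought over the 6 libraries by Pearson's r of log2(FPKM + 1) among 7934 candidates. Each value is a description of 6 points that share pools and are set mainly by the difference between the fractions, and the 3 leading genes of every receptor had r of at least 0.9995. Ltb4r1 was most like Alox5, whose FPKM was 2.35, 7.23 and 1.97 in WT, Het and KO Lin- cells and 82.7, 89.3 and 89.4 in Gr1+Mac1+ cells. Fpr2 was most like Chi3l1, a secreted chitinase-like protein, with Anxa1 next. Cxcr4 was most like Prtn3, the granule protease proteinase 3, which had an FPKM of 43.8, 72.2 and 49.7 in Lin- cells and of 729, 768 and 805 in Gr1+Mac1+ cells. The first gene was Clec5a for Ccr1, Nlrp3 for Ccr2, Tgfbr1 for Cx3cr1, Pla2g7 for Fpr1, Slpi for C5ar1, Pilrb1 for Ptafr and Hist1h1c for Cxcr2. Over the 45 pairs of members, r had a median of 0.993 and ran from 0.943 to 0.9995.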

How the data were processed

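RNA of 2 bone marrow fractions from 3 pools was sequenced, giving 6 libraries. The deposited values are FPKM per gene locus on mm10, each with an interval and a status per the file headers. The submitters' processing notes name TopHat2 2.0.7 and Cufflinks 2.0.2; which step used which, and with what annotation, is not given in the sources used here. No fragment counts were used, since the files give FPKM. The interval widths imply a fragment number for each value, and these, with the counting SEs made from them, say nothing of the spread between mice. FPKM divides by the library total, and the top 10 genes took up 25.1% to 27.8% of that sum in Gr1+Mac1+ and 8.72% to 10.5% in Lin- libraries.

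The fractions were compared by limma 3.58.1 (R 4.3.3) with trend on log2(FPKM + 1) and the pool as a block, over 11489 genes with status OK in all libraries and a mean FPKM of at least 1, at a Benjamini-Hochberg adjusted p under 0.05. The block was used because, per the labels' protocols, each pool of mice gave both fractions; the deviations of paired libraries correlated across genes by 0.10, -0.06 and -0.01 in WT, Het and KO. The residual holds the interaction of genotype and fraction too. Genotypes were compared by the size rule, over genes with status OK in both libraries and a fraction mean of 1 FPKM or above. Both steps were tested on simulated data. Members and lists were chosen with earlier results of these data known. All members are named, and from each list the genes past the size rule (at most 6), the 2 of highest mean FPKM and up to 4 with the largest ratio between fractions; likeness used genes with a mean FPKM of at least 5. Ly6g, Siglecf, Oxer1 and Ric8a were not matched and not analysed here. Some list genes that the naming rule selects are not reported here. Alternatives were other pseudocounts (0.1 and 5), level filters, fold limits and scaling, no interval criterion, no block, and each pool left out. Other steps ran in Python 3.11.15 with pandas 2.3.3 and numpy 2.4.6, and plots were drawn in matplotlib 3.10.9.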

Additional observations from a re-analysis of the deposited data

Results flagged for a closer look

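For 5 receptors, the Het library lay on opposite sides of the WT library in the 2 fractions, with deposited intervals apart in both. Of all genes tested, 8.41% were higher in Het Lin- cells and 8.49% lower in Het Gr1+Mac1+ cells with intervals apart. The share of genes in both groups was not counted. Ccr1, Fpr1 and Fpr2 reached the mean FPKM of 1 asked in Lin- cells only through the Het library. The log2 ratio of Het to WT for Cxcr2 was 0.29 among Lin- and -0.12 among Gr1+Mac1+ cells; it was 1.62 and -0.25 for Ccr1, and 1.12 and -0.25 for Ccr2. For Fpr1 it was 2.46 and -0.16, and for Fpr2 3.59 and -0.12.

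The KO and Het libraries differed in the other direction for 4 of the same receptors, a comparison that shares the Het libraries. With intervals apart, 7.40% of all genes tested were lower in KO than Het Lin- cells. In Gr1+Mac1+ cells 9.46% were higher in KO than Het, and the genes in both groups were not counted. The log2 ratio of KO to Het for Ccr1 was -1.63 among Lin- and 0.20 among Gr1+Mac1+ cells; it was -0.71 and 0.27 for Ccr2, -2.46 and 0.21 for Fpr1, and -3.39 and 0.35 for Fpr2. With 1 library per genotype and fraction, the difference between the fractions was not tested for any of these. The Het Lin- library is the one whose neutrophil markers summed to 8107 FPKM.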

How the results depend on the processing

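All 10 members stayed higher in Gr1+Mac1+ cells under every pseudocount, filter, scaling and block setting and with each pool left out (10 in each of the 3 cases); the largest limma adjusted p was 0.014, without the WT pool, and 10 were also called without the replicate block. Between genotypes, the counts of 0 in KO against WT and in Gr1+Mac1+ cells did not change in any setting. In Het against WT Lin- cells the count of 3 became 1 (Fpr2) with a pseudocount of 5 or at 3-fold, 0 with a mean FPKM of at least 5, which left 2 members to test, and 6 when the higher library needed an FPKM of 1 and not 5. In KO against Het Lin- cells the count of 2 became 1, 0 and 5 with that pseudocount, that filter and that level, and 4 at 1.5-fold. With the filter on the 2 libraries compared, chosen after seeing the data, the counts were 3 and 2, and 0 in KO against WT. The other gene lists moved more: at 1.5-fold 1 ligand gene (Alox5ap) was higher in KO against WT Lin- cells, with a pseudocount of 0.1 or at 1.5-fold 1 (Ppbp) was higher in Het against WT Gr1+Mac1+ cells, and at 1.5-fold 1 other receptor was lower there. With a mean FPKM of at least 5, the Het against WT Lin- counts went from 6 to 4 ligand genes and from 2 to 0 signalling genes, those of KO against Het from 5 to 4 and from 2 to 0, and the other receptors higher in Gr1+Mac1+ cells from 12 to 3. A pseudocount of 5 left 4 and 1 in Het against WT, 3-fold left 4 ligand genes, and 1.5-fold gave 8 and 4. Filters, fold limits and the interval criterion change only which genes are called, so a ratio could move only with the pseudocount or the scaling. Under those settings 28 ratios of single members between genotypes moved by more than their counting interval. None changed direction by a called amount. Receptor levels near 0 in Lin- cells limit what could be seen: Fpr1, Fpr2, C5ar1, Ptafr and Ccr1 rest on at most an implied 8 fragments in WT and KO.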

Other observations

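Genes of leukotriene B4 synthesis and of CC chemokines did not all follow the Het Lin- library alone. Ccl4, a CC chemokine, had an FPKM of 2.58, 6.20 and 5.84 in WT, Het and KO Lin- cells, and Ccl3, which binds CCR1, stood at 7.15, 12.0 and 11.3. Alox5ap had 20.7, 71.1 and 35.7, whereas Alox5 had 2.35, 7.23 and 1.97. In Gr1+Mac1+ cells Ccl3 stood at 98.5, 100.8 and 100.5, and Ccl4 at 13.8, 15.1 and 15.1. The KO Lin- library thus held values near those of Het for Ccl3 and Ccl4, while Ccr1 stood at 0.215 FPKM. These are single libraries and no test was made.

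Ccl2, the ligand of CCR2, had an FPKM of 18.8, 12.4 and 16.2 in WT, Het and KO Gr1+Mac1+ cells, beside 70.6, 59.4 and 71.5 for Ccr2 itself. Ccl6, a CCR1 ligand, had 317, 234 and 319, beside 55.3, 46.2 and 53.1 for Ccr1. Ppbp, whose product is a CXCR2 ligand, was higher in every Lin- library, at 29.0, 57.8 and 21.9, than in any Gr1+Mac1+ library, where it had 2.59, 5.87 and 3.32; the megakaryocyte markers, Ppbp among them, summed to 348, 481 and 237 FPKM in the Lin- libraries.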
